A study of Mus musculus with 6 samples.

Results

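The genes that carry the IL-15 signal in NK cells were examined as a group of 10, chosen by name from the pathway with earlier results of these data known. They were the receptor chains Il2rb, Il2rg and Il15ra, the kinases Jak1 and Jak3, the transcription factors Stat5a and Stat5b, and the SOCS family inhibitors Cish, Socs1 and Socs3. All 10 were among the 15474 genes with enough counts for a test, of 25690 gene symbols in all. RNA had been sequenced from CD27SP NK cells, immature NK cells that carry CD27 but not CD11b, sorted from mouse BM, with 3 libraries of Ncr1cre Myc wt/wt cells (wt/wt below) and 3 of Ncr1cre Myc fl/fl cells (fl/fl). Both genotypes carry Ncr1cre, a Cre recombinase expressed from the Ncr1 locus, and had been backcrossed to C57BL/6. In Ncr1cre Myc fl/fl mice Cre deletes Myc once a cell expresses NKp46, the product of that locus. The methods give mice of 6 to 14 wk, matched for sex and age, without an age per library, the cells received no treatment named in the labels, and Ncr1cre Myc wt/wt mice also existed on a CD45.1 congenic background. No label says that the libraries of a genotype came from separate mice, so the p-values measure only the spread between these libraries. The comparison asked how the RNA of each component of the IL-15 pathway differed without Myc.

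IL-15 is the cytokine on which NK cells depend for development and survival. It is presented by its own α chain, encoded by Il15ra, to a complex of CD122 (Il2rb) and the common γ chain CD132 (Il2rg), which is shared with the IL-2 receptor. JAK1 binds CD122 and JAK3 binds CD132. The kinases phosphorylate STAT5A and STAT5B, which enter the nucleus as dimers and bind the palindrome TTCNNNGAA. Among the genes induced by STAT5 are those of CIS (Cish) and the SOCS proteins, which bind receptors or JAK kinases and dampen the signal, so that their transcripts are commonly read as a feedback arm of the pathway.

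Of the 10 genes, Cish and Socs3 had more RNA in fl/fl than in wt/wt NK cells past the threshold, which was an adjusted p below 0.01 together with a log2 fold change of 0.5 or more in size in edgeR's quasi-likelihood test. Socs3 rose 3.25-fold and Cish 2.09-fold. The fit treats equal replicate numbers as a block, a pairing that the libraries do not show. Without the block only Socs3 passed (adjusted p of Cish 0.0563, edgeR), and with any single library also left out 0 of the 10 genes passed. Socs1 missed the threshold at an adjusted p of 0.0101 (edgeR) with a 1.89-fold higher level. None of the 10 genes was lower past the threshold, with none lower in DESeq2 or in limma-trend. Over all tested genes, 2.15% passed in either direction, 1.28% were higher and 0.872% were lower, while DESeq2 called 7.71% and limma-trend 1.43% in either direction. At an unadjusted p below 0.05 in edgeR, 8 of the 10 genes were higher and 0 lower, against 12.4% and 10.2% of all tested genes, which together are 22.5%. With the limit set only by an adjusted p below 0.05, 3 of the 10 genes passed, all higher, against 7.83% of all tested genes in either direction. The log2 fold change was above 0 for 8 genes, with a median over the 10 genes of 0.47 against 0.01 over all tested genes. The genotypes did not overlap in 8 of the 10 genes, each time with every fl/fl library above every wt/wt library. Among all tested genes, 16.2% were separated in that direction and 15.1% in the other. In bulk RNA, a change in the share of a cell type and a change in the RNA per cell cannot be told apart.

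The promoter windows of the SOCS family genes are shown because these are the members with the largest differences, and because STAT5 is known to bind TTCNNNGAA. They are RefSeq sequences of GRCm38.p6 from 250 bases before to 50 bases after the transcription start, 5′ to 3′ on the strand of the gene, and capitals mark matches to TTCNNNGAA. The windows lie at chr9:107296409-107296708 on the plus strand for Cish, at chr11:117969317-117969616 on the minus strand for Socs3 and at chr16:10785487-10785786 on the minus strand for Socs1.
Cish: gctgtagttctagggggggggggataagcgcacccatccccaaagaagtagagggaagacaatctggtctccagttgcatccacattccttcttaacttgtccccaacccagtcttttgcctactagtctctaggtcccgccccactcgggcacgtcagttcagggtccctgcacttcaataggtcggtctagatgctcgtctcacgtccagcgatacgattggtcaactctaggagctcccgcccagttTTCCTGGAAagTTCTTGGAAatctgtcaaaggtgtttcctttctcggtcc
Socs3: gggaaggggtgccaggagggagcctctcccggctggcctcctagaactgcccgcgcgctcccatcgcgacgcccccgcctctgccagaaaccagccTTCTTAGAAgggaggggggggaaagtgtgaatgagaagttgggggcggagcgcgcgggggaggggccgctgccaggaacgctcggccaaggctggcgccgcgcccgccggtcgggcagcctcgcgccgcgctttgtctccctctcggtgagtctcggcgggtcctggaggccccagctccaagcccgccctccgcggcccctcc
Socs1: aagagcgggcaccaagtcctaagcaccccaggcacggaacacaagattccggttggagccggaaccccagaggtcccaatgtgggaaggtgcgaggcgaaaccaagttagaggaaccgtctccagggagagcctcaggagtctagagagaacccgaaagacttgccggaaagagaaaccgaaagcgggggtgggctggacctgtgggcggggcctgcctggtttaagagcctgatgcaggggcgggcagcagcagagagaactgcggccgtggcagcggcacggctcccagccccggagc

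The Cish window held 2 matches to TTCNNNGAA, which lie side by side, their first bases at positions 1 and 12 from the transcription start. The Socs3 window held 1 match, 154 bases before the start, and the Socs1 window held none. Of the 10 genes, 9 had a RefSeq window, with 12 windows between them because some had more than one start, and the windows of Cish and Socs3 were the 2 with a match. Among all 32851 RefSeq windows of mouse genes, 8.3% held TTCNNNGAA, and 0.457% held it at least 2 times. The E-box CACGTG, the preferred site of MYC with MAX, was in none of the 12 windows, against 7.15% of all windows. Both motifs read the same on either strand, and no window of these genes held both. A match is a run of letters and not a measured binding site.

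The libraries differed in ways that bear on these genes. The estimated counts summed to 8101219, 55176898 and 64962491 for replicates 1, 2 and 4 of wt/wt and to between 54550907 and 60200120 for fl/fl, so replicate 1 of wt/wt was the shallow library. Myc was left at 37.0% of its wt/wt level, without overlap between the genotypes. The NK cell markers, with Nkg7, Klrk1 and Klrb1c those with the most counts, summed to between 11070 and 11530 counts per Mio (CPM, scaled by TMM) in wt/wt and between 11090 and 12550 CPM in fl/fl libraries, and 0 of 8 passed the threshold in edgeR or limma-trend, with 1 lower in DESeq2 and 1 lower at an unadjusted p below 0.05. The latter was Gzma, named after its values were seen, at 2024, 1587 and 1516 CPM in wt/wt and 1030, 900.5 and 1380 CPM in fl/fl libraries (log2 fold change −0.64, adjusted p = 0.0564, edgeR). Of the mature NK cell markers (Zeb2, Itgam and S1pr5 with the most counts), 1 of 5 was lower, with sums of 122.1 to 195.1 CPM and of 129.5 to 140.2 CPM. At an unadjusted p below 0.05 in edgeR, 1 of the 5 was higher and 1 lower. None of the 5 ILC1 markers and none of the 6 T cell markers passed in edgeR, DESeq2 or limma-trend, with 2 ILC1 markers higher, and 1 T cell marker higher and 1 lower, at an unadjusted p below 0.05. Several lists of markers of other BM cells were higher in fl/fl libraries. All 8 basophil and mast cell markers (Prss34, Mcpt8 and Cpa3 with the most counts) rose, from sums of 15.1 to 18.5 CPM to sums of 121.6 to 334.3 CPM. All 4 granulocyte-monocyte progenitor markers (Mpo, Elane and Ctsg with the most counts) rose, from 81.7 to 124.5 CPM to 516.5 to 867.8 CPM. Of the monocyte markers 4 of 6 were higher past the threshold in edgeR, and of the erythroid markers 2 of 7 (summed 43.8 to 279.8 against 536.7 to 1147 CPM). Of the plasmacytoid dendritic cell markers 2 of 5 passed, of the platelet markers 1 of 5, and none of the 5 tested neutrophil and 5 tested B cell markers. At an unadjusted p below 0.05 in edgeR, 5 monocyte, 7 erythroid, 4 plasmacytoid dendritic cell, 4 platelet, 5 neutrophil and 2 B cell markers were higher. These shares stand beside 12.4% of all tested genes. In the same order, DESeq2 called 5, 5, 2, 1, 4 and 0 higher. No marker was at 0 in every library.

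Il2rb (ENSMUSG00000068227.9, chromosome 15 of GRCm38, 78479256 to 78495271, minus strand) encodes CD122, the β chain that carries the signal of IL-15 and IL-2. Its normalized counts were 2680, 3221 and 3222 CPM for replicates 1, 2 and 4 of wt/wt, the order used throughout, and 4330, 3851 and 4399 CPM for those of fl/fl. Every fl/fl library was above every wt/wt library. The means were 3041 ± 313 and 4193 ± 298 CPM (SD, n = 3). The log2 fold change of 0.47 (standard error 0.15, 95% interval 0.14 to 0.79) did not pass the threshold (adjusted p = 0.0852, edgeR). Il2rg (ENSMUSG00000031304.18, chromosome X, 101264378 to 101268255, minus strand) encodes the common γ chain. It was at 1638, 1681 and 1664 CPM in wt/wt and at 1904, 2277 and 2059 CPM in fl/fl libraries, again without overlap. The wt/wt libraries lay within a narrow range, with a mean of 1661 ± 21.9 CPM against 2080 ± 187 CPM (SD, n = 3). The log2 fold change was 0.32 (standard error 0.13, 95% interval 0.02 to 0.62, adjusted p = 0.194, edgeR). Both receptor chains thus had more RNA in each fl/fl library, by amounts that the corrected test did not separate from the spread between libraries. For the proteins, the paper reports moderately less CD122 on Myc-deficient NK cells of spleen and BM, and no difference detected in CD132. Those measurements were of NK cells not split by CD27 and CD11b. The number of Il2rb reads per Il2rg read, a ratio that no scaling between libraries can alter, was 1.83 ± 0.168 in wt/wt and 2.03 ± 0.304 in fl/fl libraries and overlapped.

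Il15ra (ENSMUSG00000023206.16, chromosome 2, 11705290 to 11734317, plus strand) encodes the α chain, which binds IL-15 with high affinity and presents it to neighbouring cells. It was the receptor chain with the least RNA, at 32.5, 25.2 and 24.1 CPM in wt/wt and 18.8, 23.3 and 31.5 CPM in fl/fl libraries. The genotypes overlapped, and the 2 libraries numbered 1 were the highest of wt/wt and the lowest of fl/fl. The log2 fold change was −0.16 (standard error 0.22, 95% interval −0.66 to 0.34, adjusted p = 0.745, edgeR), so a change of either sign remained within the interval. Without replicate 1 it was 0.14. Relative to Il2rb, Il15ra had 12.1, 7.82 and 7.49 reads per 1000 Il2rb reads in wt/wt and 4.35, 6.04 and 7.17 in fl/fl libraries, which did not overlap. This ratio was not tested and includes the higher Il2rb of the fl/fl libraries.

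Jak1 (ENSMUSG00000028530.14, chromosome 4, 101152367 to 101265282, minus strand) encodes the kinase on CD122. Its level was 3687, 2506 and 2324 CPM in wt/wt and 2955, 2925 and 2237 CPM in fl/fl libraries. Replicate 1 of wt/wt was the highest and replicate 4 of fl/fl the lowest, and the genotypes overlapped. The log2 fold change was −0.05 (standard error 0.15, 95% interval −0.39 to 0.29, adjusted p = 0.899, edgeR), and it was 0.08 without replicate 1. Jak3 (ENSMUSG00000031805.17, chromosome 8, 71676296 to 71690575, plus strand) encodes the kinase on the common γ chain, found mainly in blood cells. It had 147.7, 149.4 and 145.2 CPM in wt/wt and 179.5, 174.2 and 206.8 CPM in fl/fl libraries, without overlap. The log2 fold change of Jak3 was 0.34 (standard error 0.13, 95% interval 0.04 to 0.64) and did not pass (adjusted p = 0.170, edgeR). Per 1000 Jak1 reads there were 54.1 ± 12.2 Jak3 reads in wt/wt and 70.9 ± 18.6 in fl/fl libraries, with overlap.

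Stat5a (ENSMUSG00000004043.14, chromosome 11, 100859351 to 100885169, plus strand) and Stat5b (ENSMUSG00000020919.11, chromosome 11, 100780731 to 100850724, minus strand) are neighbouring genes for a pair of closely related transcription factors. Stat5a was at 19.8, 33.0 and 33.5 CPM in wt/wt and 38.2, 36.5 and 44.0 CPM in fl/fl libraries. Stat5b was at 63.5, 75.5 and 74.1 CPM in wt/wt and 113.6, 83.7 and 101.5 CPM in fl/fl libraries. Neither gene overlapped between genotypes, and in both replicate 1 of wt/wt was the lowest of all. Their log2 fold changes were alike, 0.48 (standard error 0.18, 95% interval 0.07 to 0.89, adjusted p = 0.154, edgeR) for Stat5a and 0.48 (standard error 0.16, 95% interval 0.12 to 0.83, adjusted p = 0.102, edgeR) for Stat5b. The balance between the genes was 0.400 ± 0.0777 Stat5a reads per Stat5b read in wt/wt and 0.402 ± 0.0568 in fl/fl libraries (SD, n = 3), with overlap. Without replicate 1, the log2 fold change of Stat5a was 0.24 and that of Stat5b was 0.30.

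**Figure D1:**
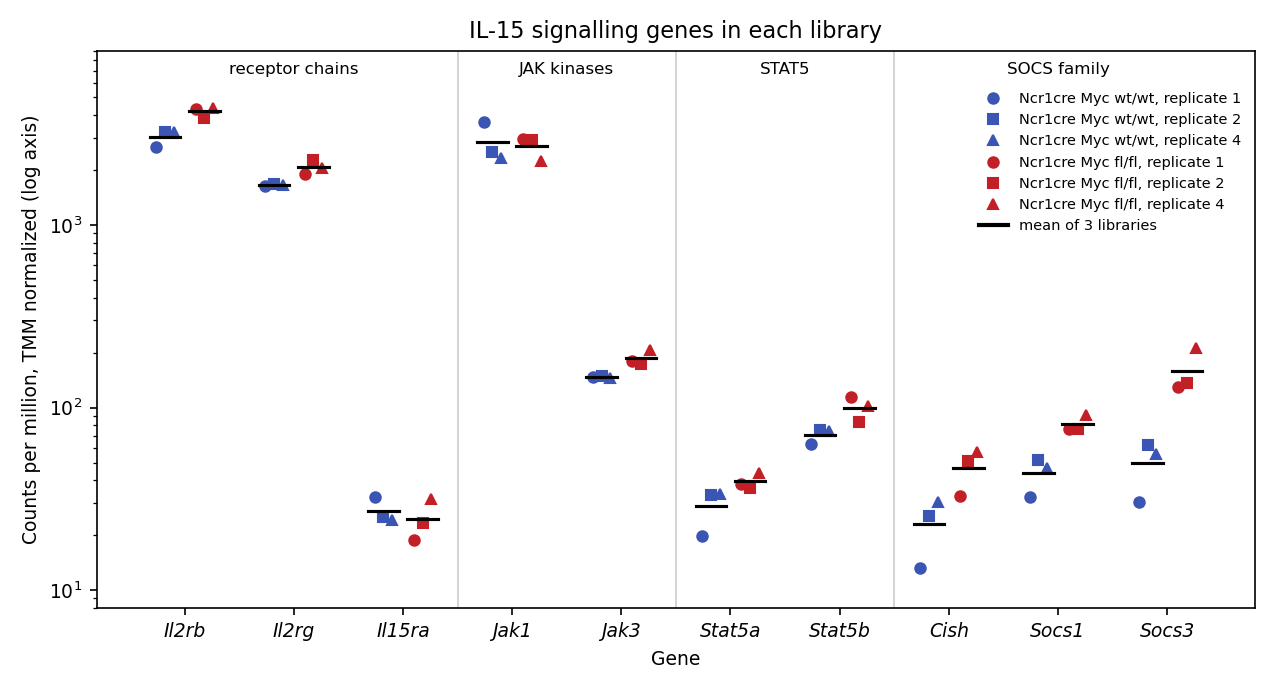
Counts per Mio, normalized by TMM and drawn on a log axis, of the 10 IL-15 signalling genes in each wt/wt (blue) and fl/fl (red) library of NK cells, with symbols for the replicate number and black lines for the mean of 3 libraries. Il15ra and Jak1 overlap between the genotypes, and in the other 8 genes every fl/fl library is above every wt/wt library.

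Cish (ENSMUSG00000032578.7, chromosome 9, 107296026 to 107302784, plus strand) encodes CIS, an inhibitor of IL-15 signalling in NK cells that binds the receptor complex and JAK1. It was at 13.3, 25.4 and 30.3 CPM in wt/wt and 32.7, 50.9 and 57.0 CPM in fl/fl libraries. The genotypes did not overlap, although the lowest fl/fl library was close to the highest wt/wt library. The means were 22.99 ± 8.77 and 46.8 ± 12.6 CPM (SD, n = 3), and the rise of Cish was 1.06 in log2 fold change (standard error 0.16, 95% interval 0.70 to 1.42, adjusted p = 0.00572, edgeR). The same-numbered pairs 1, 2 and 4 differed by 1.30, 1.00 and 0.91 on the log2 scale. Without the replicate block, which is not shown to be a real pairing, the adjusted p was 0.0563 (edgeR) with a log2 fold change of 1.00, and it was 0.0237 with 0.96 without replicate 1. Counted against Il2rb, Cish had 4.94, 7.90 and 9.39 reads per 1000 in wt/wt and 7.55, 13.2 and 12.9 in fl/fl libraries, so that on this ratio the genotypes overlapped.

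Socs1 (ENSMUSG00000038037.5, chromosome 16, 10782240 to 10785536, minus strand) encodes an inhibitor that blocks the kinase activity of JAK proteins, best known for limiting interferon and common γ chain cytokine signals. It was at 32.2, 51.9 and 46.8 CPM in wt/wt and 76.4, 76.6 and 91.4 CPM in fl/fl libraries. Every fl/fl library was above every wt/wt library by a clear margin. The means were 43.6 ± 10.2 and 81.5 ± 8.57 CPM (SD, n = 3), which made 0.92 on the log2 scale (standard error 0.16, 95% interval 0.56 to 1.28). In edgeR the adjusted p of 0.0101 was just outside the limit of 0.01. DESeq2 gave an adjusted p of 2.47e-05, and Socs1 was past the threshold under 5 of the 19 alternatives that keep it. Against Il2rb there were 12, 16.1 and 14.5 Socs1 reads per 1000 in wt/wt and 17.6, 19.9 and 20.8 in fl/fl libraries, without overlap.

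Socs3 (ENSMUSG00000053113.3, chromosome 11, 117966079 to 117970047, minus strand) encodes an inhibitor that binds receptors of the gp130 family and JAK proteins, and is known as a target of STAT3 as well as STAT5. It had the largest difference of the 10 genes, at 30.4, 62.5 and 56.0 CPM in wt/wt and 129.7, 135.6 and 211.1 CPM in fl/fl libraries. The lowest fl/fl library held more than the highest wt/wt library by a wide gap, and replicate 4 of fl/fl stood above the other fl/fl libraries. The means were 49.6 ± 17.0 and 158.8 ± 45.4 CPM (SD, n = 3), and the rise of Socs3 was 1.70 in log2 fold change (standard error 0.19, 95% interval 1.27 to 2.13, adjusted p = 0.00223, edgeR). The same-numbered pairs differed by 2.09, 1.12 and 1.91. Without the block the log2 fold change of Socs3 was 1.66 (adjusted p = 0.00637, edgeR), and without replicate 1 it was 1.52 (adjusted p = 0.0128, edgeR). Against Il2rb there were 11.3, 19.4 and 17.4 Socs3 reads per 1000 in wt/wt and 30.0, 35.2 and 48.0 in fl/fl libraries, without overlap.

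When replicate 1 of both genotypes was omitted, of which one is the shallow library, 0 of the 10 genes passed the threshold in edgeR, 6 of them were higher at an unadjusted p below 0.05 (10.3% of all genes tested in that fit), and the log2 fold changes of the 3 SOCS family genes above stayed between 0.77 and 1.52. Without replicate 4 the 1 gene past the threshold was Socs3, and without replicate 2 the 2 genes were Socs1 and Socs3. Left out singly, in the fit without the block, each of the 6 libraries also left 0 of the 10 genes past the threshold. The adjusted p then ran from 0.0521 to 0.165 for Cish and from 0.0112 to 0.0202 for Socs3 (edgeR). The summed markers of basophils and mast cells and of granulocyte-monocyte progenitors were higher in every fl/fl library, as were these 3 genes. Replicate 4 of fl/fl, with the highest Socs3, Socs1 and Cish, also had the highest sum of granulocyte-monocyte progenitor markers, at 867.8 CPM, and the lowest fl/fl sum of basophil and mast cell markers, at 121.6 CPM. The part of such cells in the SOCS family counts was not tested.

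**Figure D2:**
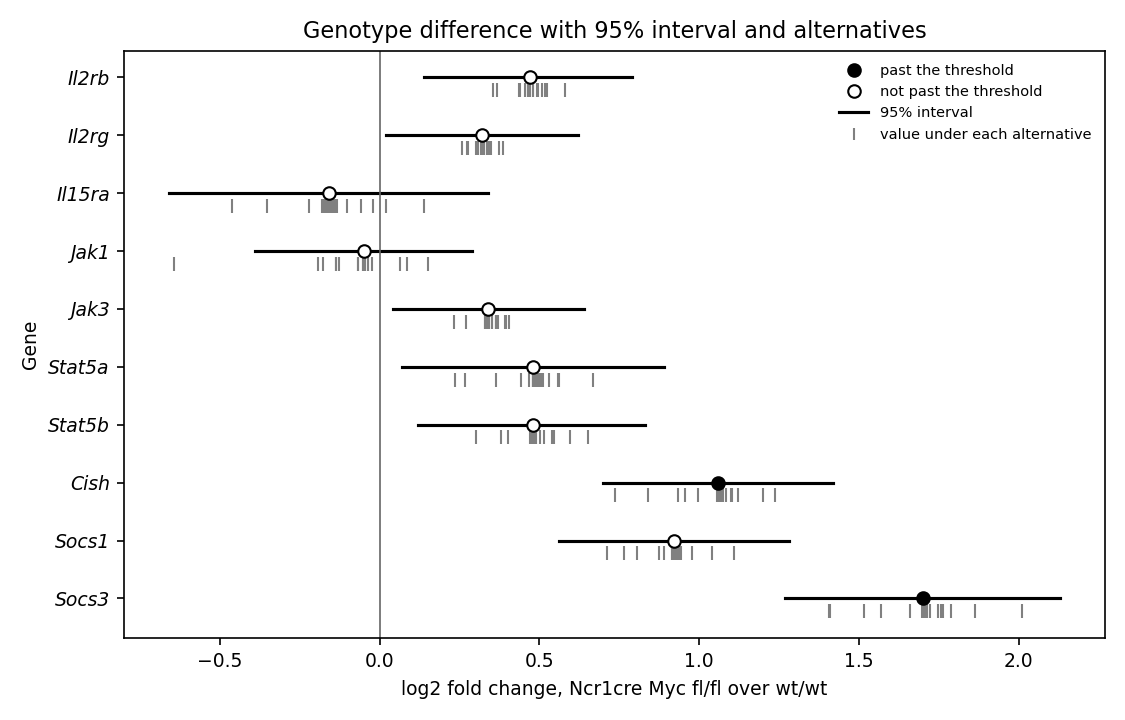
Log2 fold changes of the 10 IL-15 signalling genes between Ncr1cre Myc fl/fl and wt/wt NK cells (circles, filled where past the threshold), with unadjusted 95% intervals (lines) and the values under each of 20 alternatives (grey ticks). Cish, Socs1 and Socs3 lie farthest above 0, at 1.06, 0.92 and 1.70, and the ticks of Il15ra and Jak1 fall on both sides of 0.

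**Figure D3:**
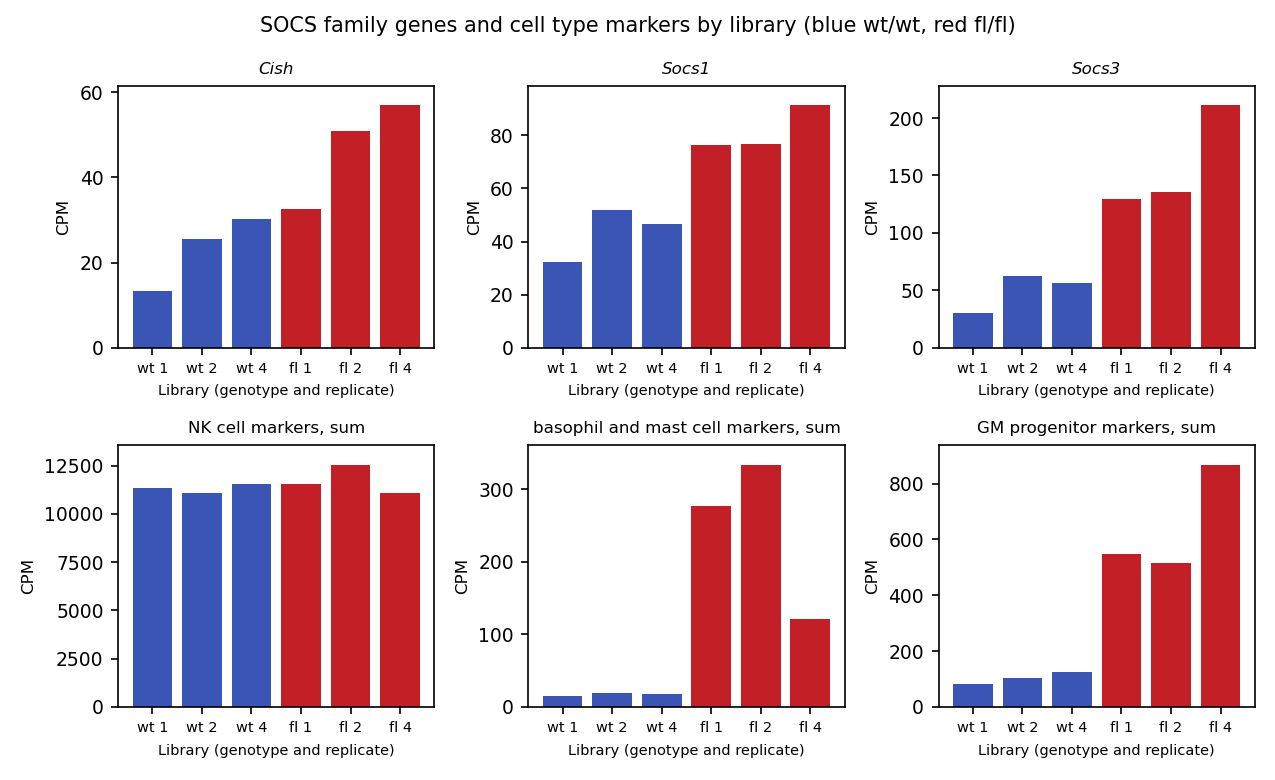
CPM of Cish, Socs1 and Socs3 (upper row) and summed CPM of marker lists of NK cells, of basophils and mast cells, and of granulocyte-monocyte progenitors (lower row, GM progenitor) in each library, with axes from 0, wt/wt in blue and fl/fl in red. The NK cell sums stay between 11070 and 12550 CPM in all 6 libraries, whereas both other sums and the 3 genes are higher in every fl/fl library.

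Levels of different genes were compared per length, as TPM. In wt/wt libraries Il2rb had the highest mean, 1720 ± 221 TPM, before Jak1 at 1660 ± 1240 TPM and Il2rg at 1520 ± 55.1 TPM, and these neighbours in the order overlapped. Far below came Socs1 at 68.3 TPM and Jak3 at 59.3 TPM, which overlapped each other, then Socs3, Il15ra and Stat5b at 33.1, 26.6 and 24.2 TPM, of which each overlapped its neighbour. Stat5a and Cish were lowest, at 12.4 and 11.6 TPM, and overlapped. In fl/fl libraries the order began with Il2rb at 2550 ± 212 TPM, Il2rg at 1950 ± 117 TPM and Jak1 at 942 ± 167 TPM, each separated from the next. Socs1 and Socs3 followed at 138 and 113 TPM and overlapped, and Socs3 stood above Jak3 at 82.3 TPM in fl/fl and below it in wt/wt libraries. Stat5b (37.3 TPM), Il15ra (27.0 TPM), Cish (25.2 TPM) and Stat5a (18.4 TPM) were lowest, and each overlapped its neighbour.

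The TPM level of Jak1 was decided by a single library. It was 3082 TPM in replicate 1 of wt/wt against 1082 and 805.3 TPM in the others of that genotype, and 1113, 931.8 and 780.0 TPM in fl/fl libraries. In that shallow library 15.0% of the Jak1 counts were assigned to the short processed transcript ENSMUST00000155328, against at most 1.9% in the other libraries, and short transcripts weigh more per count in TPM. With effective lengths as offsets, the log2 fold change of Jak1 was −0.64 (adjusted p = 0.247, edgeR).

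The assignment of reads to transcripts and to overlapping genes limits some of these values. Socs1 has 1 transcript in the files, and at least 99.3% of the Socs3 counts in each library were on ENSMUST00000054002. The leading transcript of Cish, ENSMUST00000085102, held between 63.6% and 92.0% of its counts, and ENSMUST00000168260 was at 0 in replicate 1 of wt/wt and at 14.9% and 29.9% in the others of that genotype. Il15ra has 18 transcripts in the files, of which 16 had a value above 0 in some library. Its leading coding transcript ENSMUST00000078834 held 45.1% ± 3.4 in wt/wt and 51.6% ± 5.7 in fl/fl libraries, and the retained intron transcript ENSMUST00000124448 held 18.7% ± 3.1 and 13% ± 3.1 (SD, n = 3). For Stat5b the counts were divided between ENSMUST00000107358 and ENSMUST00000004143, with no stable order between libraries. Of all runs of 100 bases in the leading transcript, the read length, 40.2% in Il2rg were shared with the annotated gene Gm20489, which received at most 22 counts in any library. The share was 7.8% in Jak3 with Insl3, which received at most 56 counts, and 7.3% in Stat5a and 5.2% in Stat5b with each other. In Cish 10.6% of the runs were also found in Gm17040 and Gm17041 on the opposite strand, neither of which was among the quantified transcripts. Reads from both strands cannot be told apart without strand information, so reads of either gene in these runs would count as Cish. No run of Il2rb, Il15ra, Jak1, Socs1 or Socs3 was shared with another gene.

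A further list held 17 genes, of the ligands IL-15 and IL-2 and of other cytokine receptor chains. None of these chains is part of the IL-15 receptor, and several serve interferons, IL-10, IL-12 or IL-27. Of the 17 genes, 3 were higher past the threshold and none was lower, with a median log2 fold change of 0.51 beside 0.01 over all tested genes. At an unadjusted p below 0.05, 9 were higher and 2 lower, beside 12.4% and 10.2% of all tested genes, and no tool called a gene lower. Over the alternatives the number called higher ran from 0 to 5, with 5 in DESeq2 and 2 in limma-trend. Il2ra encodes CD25, which turns the shared receptor into the high affinity receptor for IL-2. It was at 8.84, 5.87 and 8.96 CPM in wt/wt and 17.1, 17.5 and 24.3 CPM in fl/fl libraries, without overlap (log2 fold change 1.34, standard error 0.21, adjusted p = 0.00697, edgeR). Il4ra, the IL-4 receptor chain that pairs with the common γ chain, was at 50.02, 63.5 and 128.8 CPM and at 169.0, 175.6 and 186.5 CPM (log2 fold change 1.25, standard error 0.22, adjusted p = 0.00968, edgeR). Its wt/wt libraries were widely spread, and without the block the adjusted p was 0.0371 (edgeR). Il27ra, a chain of the IL-27 receptor, rose from 137.8 ± 14.3 to 277.9 ± 34.7 CPM (log2 fold change 1.01, standard error 0.13, adjusted p = 0.00348, edgeR). Il15 itself, named after its values were seen, was at 7.28, 4.43 and 5.34 CPM and at 4.08, 3.05 and 2.03 CPM, without overlap, a log2 fold change of −0.92 that missed the threshold (adjusted p = 0.0908, edgeR). Il2ra and Il4ra are also expressed by basophils and mast cells or myeloid cells, whose markers were higher in the same libraries, and their part in these values was not tested.

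Of the 7 other JAK and STAT genes, none passed in edgeR or in limma-trend, 1 was higher in DESeq2, and 5 were higher at an unadjusted p below 0.05 (12.4% of all tested genes). Their median log2 fold change was 0.41. Stat3, which transmits IL-6 family and IL-21 signals, had the smallest p. It was at 271.7, 267.9 and 256.6 CPM in wt/wt and 434.7, 365.0 and 397.8 CPM in fl/fl libraries, without overlap (log2 fold change 0.59, standard error 0.13, adjusted p = 0.0281, edgeR). Jak2, a kinase that serves many cytokine receptors, had a log2 fold change of 0.50 (adjusted p = 0.0551, edgeR).

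Of 15 further negative regulators, 0 were higher and 1 was lower past the threshold, and none was called higher by DESeq2 or limma-trend. Their median log2 fold change was 0.12. At an unadjusted p below 0.05, 2 were higher and 1 lower, a share near the 22.5% of all tested genes. Among the 15, Socs2, which is also known to be induced by STAT5, was at 40.4 ± 8.45 CPM in wt/wt and 44.0 ± 13.3 CPM in fl/fl libraries (log2 fold change 0.10, 95% interval −0.40 to 0.60), and the sign turned when some libraries were left out (−0.10 without replicate 1). Socs4, Socs5, Socs6 and Socs7 had log2 fold changes of −0.23, 0.30, 0.27 and −0.32, none past the threshold, and that of Socs7 was 0.048 with effective length offsets. Sh2b3 and Cblb, an adaptor that restrains JAK2 and a ubiquitin ligase, each had 0.37 (adjusted p = 0.132 and 0.140, edgeR), and that of Sh2b3 was −0.10 with the length offsets. Ptprc, which encodes the phosphatase CD45 that acts on JAK and SRC family kinases, was lower. It was at 4733, 3849 and 4006 CPM in wt/wt and at 2079, 2403 and 1288 CPM in fl/fl libraries (log2 fold change −1.17, standard error 0.19, adjusted p = 0.00708, edgeR), with an adjusted p of 0.0117 without the block. Whether the wt/wt libraries came from mice with the CD45.1 allele of Ptprc is not stated, and the allele was not tested.

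The adaptor, RAS-ERK and PI3K branch of the receptor had 17 genes, of which none passed in edgeR or limma-trend and 1 was higher in DESeq2. The median log2 fold change was 0.15, with 4 genes higher and 1 lower at an unadjusted p below 0.05, beside 22.5% of all tested genes in either direction. Pik3cd, the PI3K catalytic subunit typical of leukocytes, was at 368.2 ± 16.2 CPM in wt/wt and 522.6 ± 45.0 CPM in fl/fl libraries (log2 fold change 0.50, adjusted p = 0.0554, edgeR). Akt2, a kinase downstream of PI3K, had a log2 fold change of 0.41 (adjusted p = 0.0900, edgeR).

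Of 9 genes known to be induced by STAT5, Osm and Pim1 were higher past the threshold, none was lower, and the median log2 fold change was 0.50. At an unadjusted p below 0.05, 6 were higher and 0 lower, beside 12.4% and 10.2% of all tested genes, and DESeq2 and limma-trend called none lower. Over the alternatives the number called higher ran from 0 to 4. Like the other lists, this list was chosen with earlier results of these data known, so its shares and median are not independent support. Osm encodes the cytokine oncostatin M. Its libraries were at 21.6, 21.9 and 21.0 CPM in wt/wt and 43.9, 46.5 and 47.5 CPM in fl/fl, with little spread inside either genotype (log2 fold change 1.10, standard error 0.15, adjusted p = 0.00446, edgeR). Pim1, a serine/threonine kinase that promotes survival, was at 51.1, 49.1 and 61.0 CPM and at 121.9, 114.9 and 96.9 CPM (log2 fold change 1.05, standard error 0.16, adjusted p = 0.00577, edgeR). Gzmb, the cytotoxic protease granzyme B, was at 211.8, 185.9 and 166.0 CPM in wt/wt and at 472.2, 357.9 and 1488 CPM in fl/fl libraries. Replicate 4 of fl/fl stood far above the others. It also stood apart in the ILC1 marker Itga1, at 65.6 CPM against 12.9 and 9.88 CPM in replicates 1 and 2 of fl/fl, and in the mature NK cell marker Klrg1, at 37.1 against 7.93 and 7.85 CPM, both named after their values were seen. Their part in Gzmb was not tested. For Gzmb the log2 fold change of 1.73 (standard error 0.37) missed the threshold (adjusted p = 0.0216, edgeR). Without replicate 4 of both genotypes the log2 fold change of Gzmb was 1.03 and passed (adjusted p = 0.00727, edgeR), and without that fl/fl library alone, in the fit without the block, it was 1.16 (adjusted p = 0.00654, edgeR). Without replicate 1, none of the cytokine and receptor genes, the inhibitors or these targets passed in edgeR, while 8, 1 and 6 of them were higher and 2, 1 and 0 lower at an unadjusted p below 0.05, beside 10.3% and 8.89% of all genes tested in that fit.

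**Figure D4:**
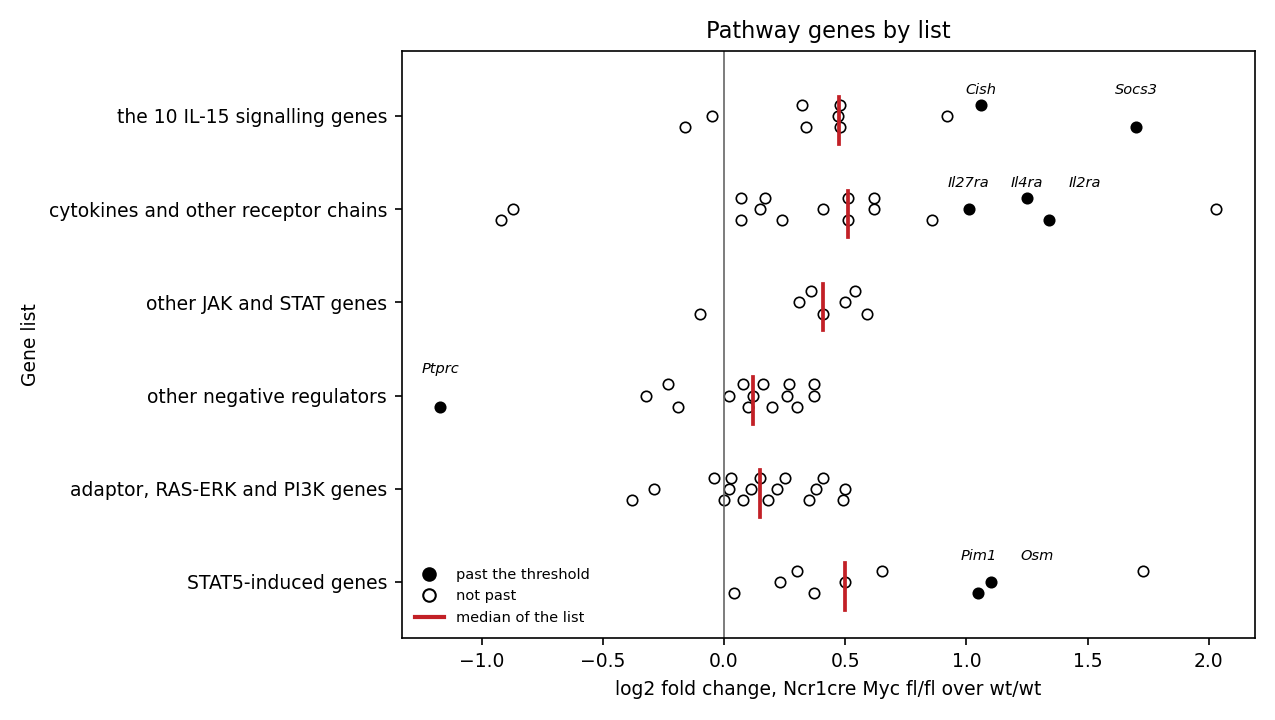
Log2 fold changes between Ncr1cre Myc fl/fl and wt/wt NK cells for the 10 IL-15 signalling genes and for 5 further lists of signalling genes, 1 circle per gene, filled and named where past the threshold, with the median of each list as a red line. The medians are 0.47 for the 10 genes and 0.51, 0.41, 0.12, 0.15 and 0.50 for the lists from top to bottom.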

How the data were processed

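Libraries of CD27SP NK cells of mouse BM, 3 of Ncr1cre Myc wt/wt and 3 of Ncr1cre Myc fl/fl, were sequenced single end after SMART-Seq v4 amplification, which does not mark strand. The authors deposited, for each of 100583 mouse transcripts, an estimated count that is not normalized, a TPM value and an effective length. The submitters' processing notes name Salmon and GRCh38, whereas the transcript identifiers are those of mouse and the columns are those of kallisto. Estimated counts were summed per gene symbol through GENCODE M21 (100239 transcripts matched) and rounded. Genes kept by filterByExpr were normalized by TMM, given as CPM, and compared by edgeR 4.0.16 (quasi-likelihood, R 4.3.3) over all 6 libraries with the replicate number as a block, since the study calls its analyses paired. Benjamini-Hochberg adjustment ran over every tested gene. The alternatives included DESeq2 1.42.0, limma-trend 3.58.1, other scalings and filters, and libraries left out. The genes named are the 10 members, genes past the threshold in each pathway list or otherwise those with the smallest p up to 3 per list, and the 3 with the highest mean CPM, which is not per length, of each marker list described. Some genes that this rule takes are not reported here. Further SOCS genes, Il15 and the genes of the closing section were added after their values were seen. The members and lists were chosen with earlier results of these data known. Read ratios and medians have no test.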

Additional observations from a re-analysis of the deposited data

How the results depend on the processing

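Over 20 alternatives the log2 fold changes of Il2rb, Il2rg, Jak3, Stat5a, Stat5b, Cish, Socs1 and Socs3 stayed above 0. Those of Il15ra and Jak1 changed sign when libraries were left out, from −0.46 to 0.14 for Il15ra and from −0.19 to 0.15 for Jak1. The values above 0 were 0.14 without replicate 1 and 0.02 without the fl/fl library of replicate 1 for Il15ra, and 0.08, 0.15 and 0.06 for Jak1 without replicate 1, without the wt/wt library of replicate 1 and without the fl/fl library of replicate 4. That of Socs2 ran from −0.12 to 0.46 over libraries left out, below 0 in 4 of these fits. With effective length offsets, Sh2b3 was at −0.10 and Socs7 at 0.048.

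The number of the 10 genes past the threshold was 2 in the reported fit. Without the replicate block 1 gene passed, Socs3, and 387 of all tested genes did, against 333 with it. Same-numbered libraries did not deviate together, with correlations of −0.0121, −0.0198 and 0.0505, so a pairing of equal numbers is not shown. Leaving out a replicate of both genotypes gave between 0 and 2 of the 10 genes, each single library left out in the fit without the block gave 0, and these fits gave between 25 and 276 of all tested genes. Library size only gave 1 of the 10 genes and 74 of all, and effective length offsets gave 0 of the 10 genes and 32 of all. DESeq2 called 1193 genes, no filter on low counts gave 902, and the limit of 0.05 on the adjusted p alone gave 1212, each with 3 of the 10 genes. The cause was not tested. Of the 19 alternatives that keep the threshold, Cish passed it under 7, Socs1 under 5 and Socs3 under 11. The shallow wt/wt library held 102 counts of Cish and 152 of Stat5a. The effect of its depth on the weakly expressed genes was not tested.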

Other observations

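The lists of receptor chains and of STAT5-induced genes held a few further values that were chosen after they were seen. Il21r, whose product signals through the common γ chain to STAT3, was at 65.9, 86.7 and 109.0 CPM in Ncr1cre Myc wt/wt and at 116.1, 128.1 and 153.6 CPM in Ncr1cre Myc fl/fl libraries, without overlap (log2 fold change 0.62, adjusted p = 0.0248, edgeR). Il10ra, the IL-10 receptor chain, was at 232.2 ± 5.43 and 330.6 ± 26.9 CPM (log2 fold change 0.51, adjusted p = 0.0445, edgeR). Bcl2l1, which encodes the survival protein BCL-XL, was at 93.8 ± 6.72 and 147.2 ± 11.3 CPM (log2 fold change 0.65, adjusted p = 0.0223, edgeR), while Mcl1, another survival gene on which NK cells depend, was at 268.5 ± 17.6 and 314.4 ± 22.5 CPM (log2 fold change 0.23, adjusted p = 0.373, edgeR). None of these passed the threshold in the reported edgeR fit. DESeq2 called Il21r (adjusted p = 0.00127), Il10ra (0.00356) and Bcl2l1 (0.000535), and Bcl2l1 also passed in edgeR without the block (adjusted p = 0.00958). Without the filter on low counts, edgeR called Il21r (adjusted p = 0.00639) and Bcl2l1 (0.00486). Each of the 4 genes, chosen after their values were seen, was higher in every fl/fl library than in every wt/wt library. The same held for 16.2% of all tested genes.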
